A study of Mus musculus with 13 samples.

Results

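The proteasome is the large protease complex that degrades proteins tagged with ubiquitin, and its subunits and assembly factors were followed here through the first 4 h after tamoxifen in mouse keratinocytes that carried an inducible DNp63alpha. The members were all genes of the array whose single annotated symbol begins with Psma, Psmb, Psmc, Psmd, Psme, Psmf or Psmg, each read by 1 probe set, the brightest on average over the 13 arrays. The rule gave 48 of the 12394 genes on the array. Of these, 45 passed the filter on dim genes, a mean of log2(intensity + 16) above 7.83 or about 211 intensity units, which left 7436 genes to test. The filter uses the mean over all arrays and not the direction of any change. The symbols Psmc3ip and Psme3ip1 meet the rule by their letters only: the first belongs to a partner of the meiotic recombinase, and the second to a protein that binds the activator Psme3.

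The core particle is a barrel of stacked rings, in which the alpha subunits (Psma) form the outer rings and gate the channel and the beta subunits (Psmb) form the inner rings with the cutting sites. The regulatory particle caps the barrel: its ATPases (Psmc) unfold the substrate, and its non-ATPase subunits (Psmd) bind ubiquitin, remove it and hold the lid together. Immunoproteasome subunits replace the cutting beta subunits in cells exposed to interferon, activators of the Psme family open the barrel without ubiquitin, and dedicated chaperones put both particles together. Keratinocytes have long been used to study proteasome control of p63, which is itself degraded by this route.

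Total RNA of primary mouse keratinocytes was measured on 13 Affymetrix arrays, 1 for untreated cells and 1 at every 20 min from 20 to 240 min after tamoxifen. All cultures, the untreated one included, had been infected with a retrovirus that encodes the DNp63alpha isoform joined to an estrogen receptor domain, which tamoxifen switches on. Cells without the fusion and a course without tamoxifen were not analysed here, so the fusion protein, tamoxifen and time in culture cannot be told apart. No source says that the arrays came from separate cultures, and each time had 1 array with no replicate, so p-values measure only the spread of single arrays around a fitted course. In such bulk RNA, fewer cells of a type and less RNA per cell cannot be told apart.

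The median intensity of an array ranged from 237.4 to 251.5 units, and the ratio of the 5′ to the 3′ probe set of Gapdh from 1.07 to 1.11. All 8 keratinocyte markers of the list passed the filter, against 3 of 8 immune, 2 of 7 fibroblast and 0 of 4 endothelial markers. Of the melanocyte markers all 4 on the array passed, and the pigment genes Dct, Tyrp1 and Pmel had mean intensities of 2363, 1565 and 1526 units, with no call along the line (adjusted p = 0.882, 0.991 and 0.755), while Mitf fell by 0.35 log2 units (adjusted p = 0.00699). The pan-leukocyte marker Ptprc lay between 68.7 and 78.1 intensity units in all 13 arrays. The array at 200 min stood apart slightly: the median tested gene lay 0.049 log2 units above its own mean there, and 34 of the 45 members were above their own mean. The lowest such count was 6 of 45, at 80 min.

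Most proteasome transcripts did not pass the test, and those that did changed by small amounts. Along a straight line fitted over the 13 arrays, 13 members rose and 2 fell, while 30 did not pass the test (limma, Benjamini-Hochberg adjusted p under 0.05 over all 7436 genes). The shares were 28.9% rising and 4.44% falling among the members, and 22.3% rising and 17.6% falling among all genes tested. Most genes of any kind did not pass along the line, 4468 of the 7436 tested. Fitted without the filter over all 12394 genes, Psma1, Psmb1 and Psmb10 lost the call (adjusted p = 0.072, 0.0661 and 0.0554). Without the 200 and 220 min arrays 8 members rose, and the share of all genes rising in that fit was not counted. Without the 2 genes that share only the letters, 11 rose and 2 fell of 43. The median fitted change over 4 h was 0.04 log2 units for the members and 0.02 for all genes tested. The median size of the change, whatever its sign, was 0.10 log2 units for the members and 0.16 for all genes tested. A fitted change over 1.2-fold was reached by 6 of the 45 members, or 13.3%, and by 30.4% of all genes tested. The 13 rises included 3 core alpha subunits, 1 core beta subunit, 1 immunoproteasome subunit, 2 ATPases, 3 assembly factors, 1 activator and both genes sharing only the letters. Both falls were ATPases.

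**Figure D1:**
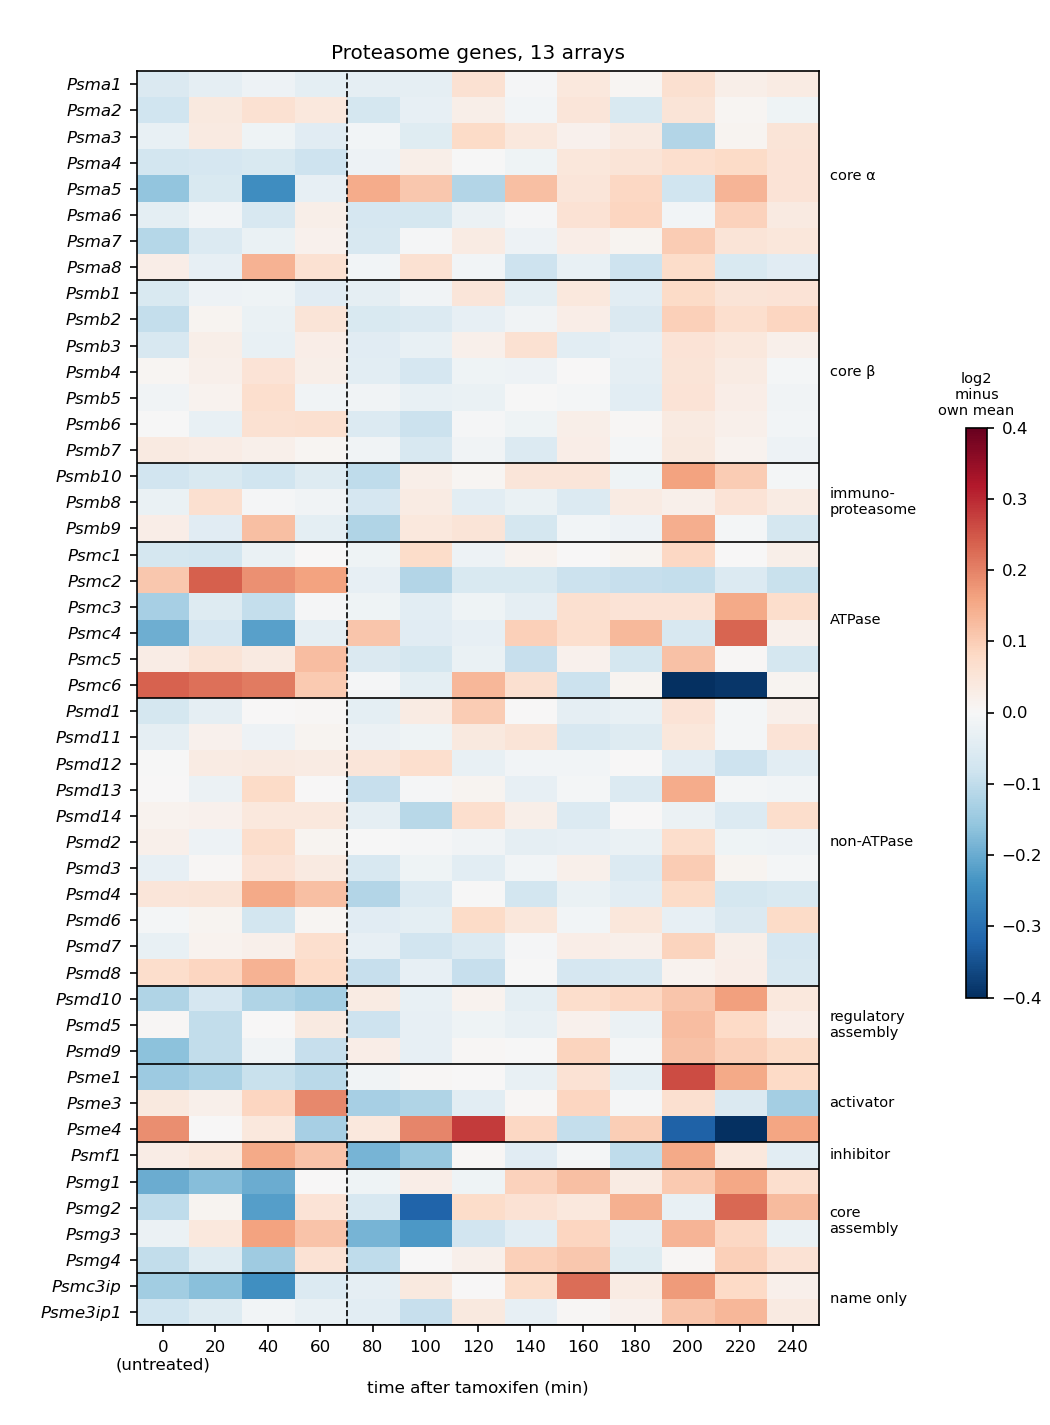
Heat map of the 48 members over the 13 arrays (columns, time after tamoxifen in min, 0 being untreated); colour gives log2(intensity + 16) minus the gene's own mean, with values beyond 0.4 drawn at the end of the scale, and the dashed line marks the gap between 60 and 80 min. Psmc6 and Psme4 are lowest at 200 and 220 min, and Psmc2 is high in the first 4 arrays only.

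**Figure D2:**
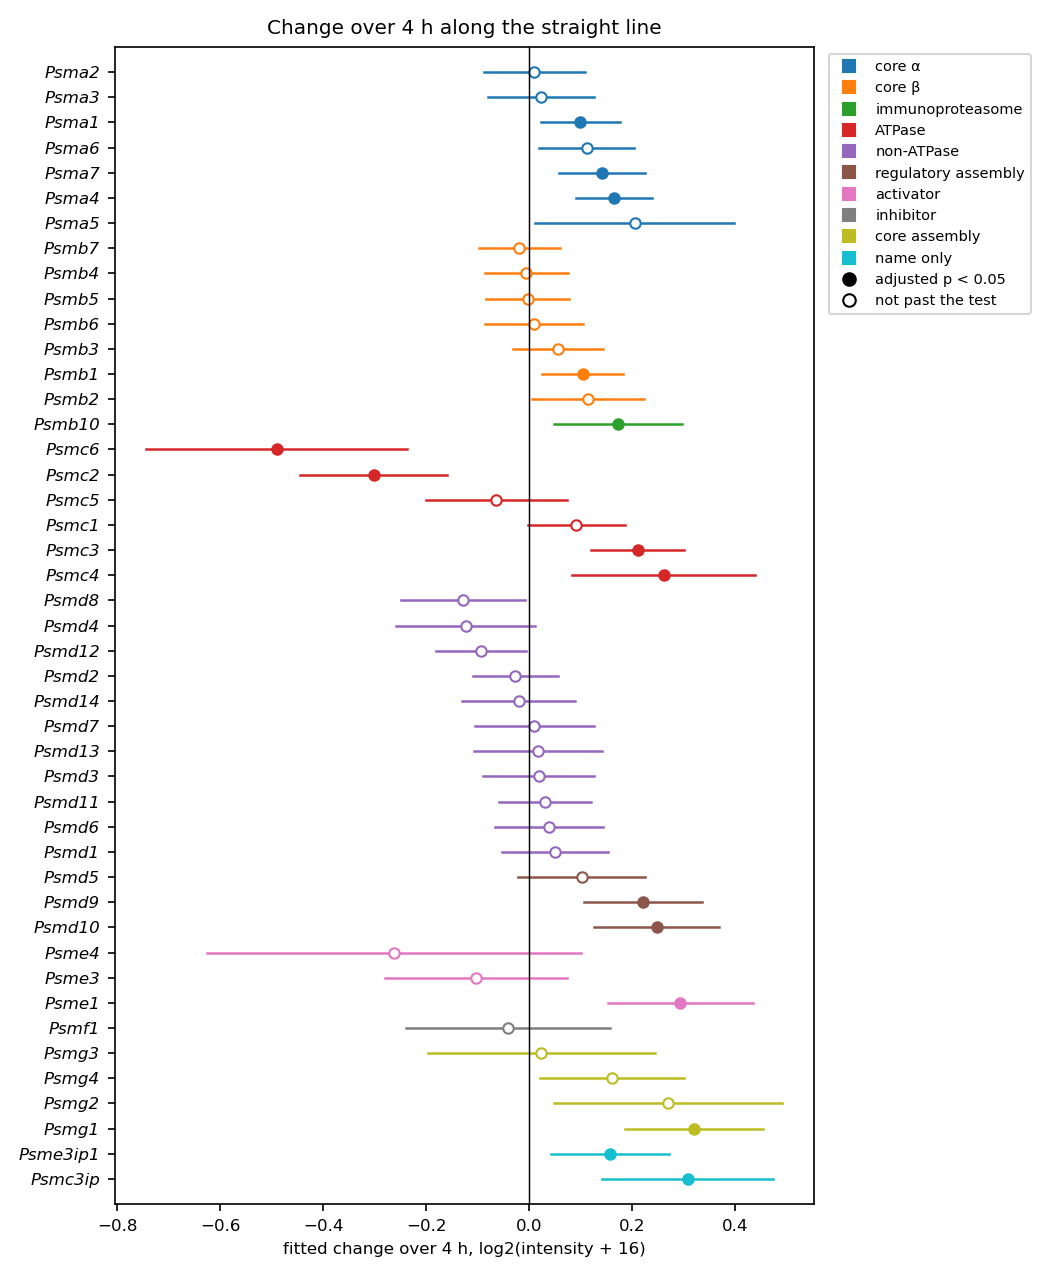
Fitted change over 4 h of the 45 members tested (points, log2 units) with 95% confidence intervals (bars), grouped by role and coloured alike; filled points passed the test. The 11 non-ATPase subunits are all open points near 0, while the ATPases hold both falls and 2 of the rises.

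Promoter windows were read from RefSeq (GRCm38.p6), 250 bases before to 50 bases after each gene's start, for 40 of the 48 members (43 windows). They are shown for the members with the largest falls and rises among the proteasome genes proper. Capitals mark matches, on either strand, to 4 motifs that were searched: the Ets core CCGGAAG, the NF-Y box CCAAT, the core of the antioxidant response element TGACNNNGC, and the interferon response element, which is GAAA, any 2 bases and GAAA again. Psmc2 has windows for 2 start sites, chr5:21785025-21785324 and chr5:21786497-21786796 on the plus strand. Psmc6 lies at chr14:45329574-45329873 (plus), Psmg1 at chr16:95990911-95991210 (minus) and Psme1 at chr14:55578244-55578543 (plus). Each sequence runs 5′ to 3′ along the gene.
Psmc2 (start 1): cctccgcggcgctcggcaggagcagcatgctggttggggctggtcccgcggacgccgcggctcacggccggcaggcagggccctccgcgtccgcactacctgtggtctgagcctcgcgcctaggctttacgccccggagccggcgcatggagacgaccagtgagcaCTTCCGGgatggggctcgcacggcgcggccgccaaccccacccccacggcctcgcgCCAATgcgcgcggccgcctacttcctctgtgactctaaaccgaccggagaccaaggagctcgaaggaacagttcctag
Psmc2 (start 2): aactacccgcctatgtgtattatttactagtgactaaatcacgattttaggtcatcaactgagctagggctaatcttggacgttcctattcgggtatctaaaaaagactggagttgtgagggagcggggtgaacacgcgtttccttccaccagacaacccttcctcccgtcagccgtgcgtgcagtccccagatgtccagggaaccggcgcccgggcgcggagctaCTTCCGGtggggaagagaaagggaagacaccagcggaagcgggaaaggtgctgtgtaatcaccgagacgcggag
Psmc6: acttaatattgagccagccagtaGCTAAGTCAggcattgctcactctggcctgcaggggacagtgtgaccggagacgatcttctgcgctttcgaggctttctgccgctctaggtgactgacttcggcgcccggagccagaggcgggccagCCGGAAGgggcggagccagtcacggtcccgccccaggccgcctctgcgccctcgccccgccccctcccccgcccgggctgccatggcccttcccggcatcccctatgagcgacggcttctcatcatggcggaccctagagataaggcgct
Psmg1: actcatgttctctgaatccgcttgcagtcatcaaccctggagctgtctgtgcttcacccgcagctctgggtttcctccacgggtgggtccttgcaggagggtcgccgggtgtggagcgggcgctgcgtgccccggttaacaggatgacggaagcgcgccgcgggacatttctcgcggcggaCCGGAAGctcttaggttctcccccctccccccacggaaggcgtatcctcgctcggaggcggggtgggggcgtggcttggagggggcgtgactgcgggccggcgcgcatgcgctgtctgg
Psme1: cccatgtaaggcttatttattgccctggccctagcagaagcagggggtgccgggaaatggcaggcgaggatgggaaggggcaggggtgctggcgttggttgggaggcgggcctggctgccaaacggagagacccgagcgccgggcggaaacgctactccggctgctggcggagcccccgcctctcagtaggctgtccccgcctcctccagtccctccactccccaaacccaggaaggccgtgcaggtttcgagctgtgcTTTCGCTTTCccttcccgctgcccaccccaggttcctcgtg
The Ets core was found in both windows of Psmc2 and in those of Psmc6 and Psmg1, the NF-Y box in the first window of Psmc2, the antioxidant element in that of Psmc6, and the interferon element in that of Psme1. Over the members, the Ets core was in 17 of 43 windows, or 39.5%, against 18.9% of the windows of all genes tested and 8.86% of all 32851 windows. The interferon element was in 11.6% of the members' windows, against 2.76% of those of tested genes and 3.44% of all. Among its 5 holders were Psme1 and Psmd9, which rose, and Psmb3, Psmd4 and Psmg4, which were not called along the line. The antioxidant core was in 14% against 14.3% and 12.4%, and the NF-Y box in 34.9% against 37.2% and 37.4%. A match describes letters in the window and not a bound site.

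Of the 7 alpha subunits of the outer rings that were tested, 3 rose. The fitted change was positive for all 7, from 0.0100 to 0.20 log2 units, and for 3981 of all 7436 genes tested. Psma4 had 3413, 3428, 3442, 3396, 3548, 3656, 3593, 3555, 3712, 3726, 3767, 3795 and 3731 intensity units from untreated to 240 min in time order. All 9 arrays from 80 min lay above all 4 up to 60 min. It rose by 0.17 ± 0.035 log2 units over 4 h (estimate ± SE, adjusted p = 0.0019). Psma7 rose by 0.14 ± 0.039 (adjusted p = 0.00982), with 4183 intensity units at 240 min and 3740.1 in untreated cells. Without the untreated array the adjusted p of Psma7 was 0.0535. Psma1 rose by 0.10 ± 0.036 (adjusted p = 0.0396), and this call was lost without any 1 of 9 arrays (untreated, 20, 40, 60, 80, 160, 200, 220 or 240 min), with adjusted p between 0.0515 and 0.103. With the mean over its 3 probe sets Psma1 was not called (adjusted p = 0.504). The dimmer ones, with mean intensities of 72.6 and 62.2 units, lay below the filter level. Psma5 had the highest estimate of the ring, 0.20 ± 0.091, and did not pass (adjusted p = 0.0829); its arrays scattered between 2673 and 3525 intensity units. A second probe set of Psma5 had 0.27 ± 0.059 and passed (adjusted p = 0.00367 over all probe sets). Psma6 had 0.11 ± 0.043 (adjusted p = 0.0514), and Psma2 and Psma3 had estimates of 0.0100 and 0.02. Psma8, the alpha subunit of germ cells, lay between 79.6 and 95.5 intensity units and was too dim to be tested.

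Of the 7 beta subunits of the inner rings, 1 rose. They had a median change of 0.0094 log2 units, their 95% confidence intervals lay together between -0.098 and 0.22. The 3 cutting subunits had fitted changes close to 0. Psmb5, with the chymotrypsin-like site, had 4613 intensity units at 240 min and 4619.9 in untreated cells, and its fitted change was -0.0032 log2 units (95% confidence interval from -0.083 to 0.077). Psmb6, with the caspase-like site, changed by 0.0094 (from -0.086 to 0.11), and Psmb7, with the trypsin-like site, by -0.019 (from -0.098 to 0.060). None of these 3 passed the test, and the intervals leave out a change of 1.2-fold in either direction. Psmb1 rose by 0.10 ± 0.037 (adjusted p = 0.0369), but not without the untreated, 20, 60, 160, 200, 220 or 240 min array, where the adjusted p lay between 0.0507 and 0.0969. The remaining 3, Psmb2, Psmb3 and Psmb4, had 0.11, 0.06 and -0.0055.

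Of the 3 immunoproteasome subunits read, 2 were below the filter and 1 rose. Psmb8 lay between 110.1 and 122.2 intensity units and Psmb9 between 127.6 and 156.9 over the 13 arrays, both under the filter of 211, while Psmb10 at 357.5 to 432.5 was the nearest above it. Psmb11, the thymus subunit, had no probe set with a single symbol. Psmb10, which takes the place of Psmb7, had 379.8, 432, 415 and 383 intensity units at 180, 200, 220 and 240 min, against 368, 364, 371 and 357 at 20, 40, 60 and 80 min. It rose by 0.17 ± 0.058 along the line (adjusted p = 0.0276), and its highest arrays were 200 and 220 min. The call was lost without the untreated, 20, 40, 200 or 220 min array, with adjusted p between 0.0523 and 0.0705. Fitted without the filter, Psmb8 changed by 0.03 (adjusted p = 0.661) and Psmb9 by -0.0093 (adjusted p = 0.949). Among the genes that load peptides for MHC class I or respond to interferon, 7 of 18 listed were bright enough to test. Against 22.3% of all genes tested, 1 gene of these 7 rose, or 14.3%. That gene was Tap1, a subunit of the peptide transporter, with a change of 0.33 ± 0.118 log2 units (adjusted p = 0.0386). Of 8 immune markers 5 were below the filter, Cd14 rose by 0.52 and Cd68 fell by 0.55 log2 units (adjusted p = 0.000705 and 0.000978). The summed intensity of the 8 lay between 1669.6 and 1893 at 180 to 240 min, and between 1679 and 1899 at 20 to 80 min. Their part in the rise of Psmb10 was not tested.

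The ATPase ring moved in both directions. Of its 6 subunits, Psmc3 and Psmc4 rose, Psmc2 and Psmc6 fell, and Psmc1 and Psmc5 did not pass the test. In the assembled ring Psmc2 pairs with Psmc1, Psmc6 with Psmc3 and Psmc4 with Psmc5. Psmc6 and Psmc3, which are such a pair, were called in opposite directions; the difference between partners was not tested. Psmc2 had 4087, 3856, 4001, 4006, 3935, 3919, 3908, 4021 and 3929 intensity units in the 9 arrays from 80 to 240 min, against 4504, 4936, 4744 and 4671 in the 4 arrays from untreated to 60 min. The highest array from 80 min on was below the lowest of the first 4. Psmc2 fell by 0.30 ± 0.067 log2 units along the line (adjusted p = 0.00275), and in a fit of a single step between 60 and 80 min the difference was -0.25 ± 0.026 (adjusted p = 4.4e-06); its 2 promoter windows are printed above. A second probe set of the gene read at most 4110.1 intensity units from 80 min and at least 4319 up to 60 min. With the step in the same fit, the remaining slope of Psmc2 was -0.0044 log2 units per h (adjusted p = 0.892).

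Psmc6 had 4428, 4378, 4342, 4037, 3742, 3652, 4114, 3926, 3534, 3780.5, 2718, 2863 and 3785 intensity units from untreated to 240 min in time order. The 200 and 220 min arrays were the lowest by a wide margin, and 240 min was back within the range of the arrays from 80 to 180 min. Psmc6 fell by 0.49 ± 0.119 log2 units (adjusted p = 0.00472), the largest change among the members. Without the 200 and 220 min arrays it fell by 0.26 (adjusted p = 0.0182). Other probe sets for the gene gave another picture. The next brightest had 309.9 and 377.5 intensity units at 200 and 220 min, and between 536 and 916 in the other 11 arrays. That probe set changed by -0.34 ± 0.353 log2 units over all arrays (adjusted p = 0.567) and by 0.41 ± 0.184 without those 2 (adjusted p = 0.132). With the mean over its probe sets in place of the brightest one, Psmc6 was not called (adjusted p = 0.289). The dimmest of them had a mean of 150.8 intensity units, below the filter level. The dip at 200 and 220 min was thus present in the brightest and the next brightest probe set. The dimmest was also lowest there, with 90.7 and 104.2 intensity units, against 127.3 to 183.9 in the other 11 arrays. Without the 200 and 220 min arrays, a fall was called only in the brightest of the gene's 3 probe sets.

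Psmc3 had 2872, 3042, 2951, 3141, 3113, 3064, 3118, 3078, 3296, 3277, 3276, 3503 and 3311 intensity units in time order, with 220 min highest and untreated lowest. It rose by 0.21 ± 0.042 log2 units (adjusted p = 0.00144). Psmc4 rose by 0.26 ± 0.084 (adjusted p = 0.0221), with 2278 intensity units at 240 min and 1958 in untreated cells. That call was lost without the untreated, 40 or 220 min array (adjusted p between 0.0567 and 0.0882), and the second probe set of Psmc4 changed by 0.03 log2 units (adjusted p = 0.773). Psmc1 had 0.092 ± 0.044 (adjusted p = 0.112) and Psmc5 had -0.064 ± 0.064 (adjusted p = 0.45).

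**Figure D3:**
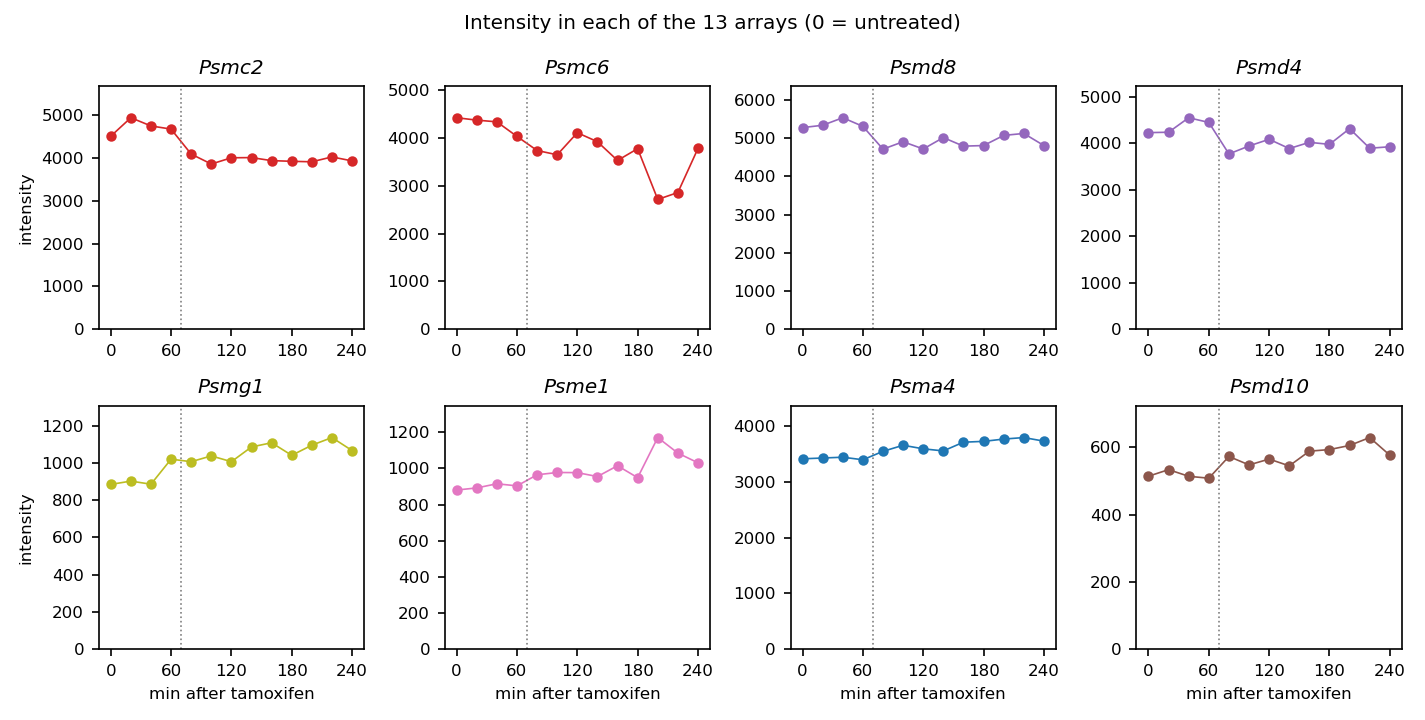
Intensity of 8 members in each of the 13 arrays (points joined in time order, 0 being untreated; vertical axes start at 0; the dotted line marks the gap between 60 and 80 min). Psmc2 and Psmd8 are lower in all 9 arrays from 80 min, Psme1, Psma4 and Psmd10 are higher in all 9, and Psmc6 dips at 200 and 220 min.

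None of the 11 non-ATPase subunits of the regulatory particle was called along the line. Their changes ran from -0.13 to 0.05 log2 units, with a median of 0.0098, and all their 95% confidence intervals lay between -0.26 and 0.15. The group includes Psmd14, the deubiquitinase of the lid, at -0.021 ± 0.052 (adjusted p = 0.777), and Psmd2 and Psmd1, the scaffolds of the base, at -0.027 and 0.05. Psmd12, a lid subunit, had -0.094 ± 0.041 (adjusted p = 0.0785). The ubiquitin receptor Psmd4 had -0.12 ± 0.064 (adjusted p = 0.135) and the lid subunit Psmd8 had -0.13 ± 0.057 (adjusted p = 0.0829). Both were lower from 80 min on in the step fit. Psmd8 had 4716, 4909.8, 4719.6, 5018, 4794, 4809, 5075, 5126 and 4809.9 intensity units from 80 to 240 min, against 5279.6, 5341, 5538 and 5312 from untreated to 60 min. These ranges did not overlap, and the step was -0.14 ± 0.027 log2 units (adjusted p = 0.00101). For Psmd4 the step was -0.13 ± 0.033 (adjusted p = 0.00465), and its 200 min array, at 4314 intensity units, lay above the untreated one, at 4228.

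The step fit set the 9 arrays from 80 min against the 4 up to 60 min for every gene. It called 9 members higher and 4 lower from 80 min, 20.0% and 8.89% of those tested, where 21.7% and 20.1% of all genes were called. The 4 lower ones were Psmc2, Psmc6, Psmd4 and Psmd8, all of the regulatory particle. The 9 higher ones were Psma4, Psma5, Psmc3, Psmc4, Psmd9, Psmd10, Psme1, Psmg1 and Psmc3ip. The ranges did not overlap for 6 members, 4 of them higher from 80 min (Psma4, Psmc3ip, Psmd10 and Psme1) and 2 lower (Psmc2 and Psmd8), where 22.7% of all genes tested did not overlap in either direction. With the step as a term beside the line, limma called 0 members and 0.0134% of all genes, and 17 members had an unadjusted p under 0.05, 14 of them with a positive slope and 3 with a negative one. From the arrays at 80 to 240 min alone it called 0 members and 0.0672% of all genes, with 9 members under an unadjusted 0.05. Few genes of any kind were thus called from those 2 fits. The share of all genes under an unadjusted 0.05 was not counted, so the 17 and 9 members have no background beside them.

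Of the 3 chaperones that assemble the regulatory particle, 2 rose. Psmd10, also known as gankyrin, which holds Psmc4 during assembly, had 573, 548, 565, 545, 589, 594, 606, 629 and 577 intensity units from 80 to 240 min, against 514, 534, 514 and 509 from untreated to 60 min. All of the later arrays were above all of the earlier ones, and the rise over 4 h was 0.25 ± 0.057 log2 units (adjusted p = 0.00335). Psmd9, which binds the module of Psmc3 and Psmc6, rose by 0.22 ± 0.054 (adjusted p = 0.00481), but was not called with the mean over its probe sets (adjusted p = 0.281). The other probe set of Psmd9 had a mean of 155.4 intensity units, below the filter level. Psmd5, which holds Psmc2, had 0.10 ± 0.058 (adjusted p = 0.175).

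The chaperones of the core particle had positive changes in all 4 cases, and 1 rose. Among all 7436 genes tested, 3981 had a positive change. Psmg1, which works as a dimer with Psmg2 to lay out the alpha ring, had 885, 903, 886, 1021, 1007, 1039, 1008, 1087, 1109, 1042, 1096, 1137 and 1067 intensity units in time order. The untreated, 20 and 40 min arrays lay below all others. It rose by 0.32 ± 0.063 log2 units (adjusted p = 0.00126), the largest rise among the members, and was called with any 1 array left out. Its partner Psmg2 had 0.27 ± 0.104 (adjusted p = 0.0515), with arrays scattered between 1133 and 1666 intensity units. A second probe set of Psmg2 had 0.24 ± 0.063 and passed (adjusted p = 0.0104 over all probe sets). Psmg3 and Psmg4, the second chaperone pair, had 0.024 ± 0.103 (adjusted p = 0.877) and 0.16 ± 0.066 (adjusted p = 0.0626). Pomp, which matures the beta ring and was listed with the genes linked to the proteasome, had 0.05 ± 0.038 (adjusted p = 0.34).

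Of the 3 activators tested, Psme1 rose and the other two did not pass. Psme1, a subunit of the interferon-inducible ring, had 965, 977, 976, 955, 1015, 949, 1171, 1085 and 1031 intensity units from 80 to 240 min, against 880.1, 892, 915 and 903 from untreated to 60 min. The ranges did not overlap, and the 200 and 220 min arrays were the highest. Psme1 rose by 0.29 ± 0.066 log2 units (adjusted p = 0.00299), and by 0.21 (adjusted p = 0.0171) without those 2 arrays. Its ring partner Psme2 lay outside the rule, because its probe set is also annotated to Psme2b. That probe set had a change of 0.20 ± 0.070 (adjusted p = 0.0535 over 20394 probe sets) and its highest values, 1154 and 1116 intensity units, at 200 and 220 min. Psme3, the nuclear activator, had -0.10 ± 0.083 (adjusted p = 0.341). Psme4, an activator known for histone degradation, had 1806, 1587, 1633, 1446, 1634, 1818, 1930.4, 1682, 1484, 1699.8, 1264, 1092 and 1772 intensity units in time order. Like Psmc6 it was lowest at 200 and 220 min, and it had -0.26 ± 0.170 log2 units over all arrays (adjusted p = 0.237). Without those 2 arrays the same probe set had 0.06 ± 0.117 (adjusted p = 0.76), and the other 2 probe sets of the gene changed sign in the same way without being called. The immune marker values given beside Psmb10 apply to Psme1 too, and their part in its rise was not tested.

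Psmf1, an inhibitor of the core particle in vitro, had -0.042 ± 0.093 log2 units (adjusted p = 0.753) by its brightest probe set and 0.35 ± 0.078 (adjusted p = 0.00419 over all probe sets) by the next brightest. The 2 readings of this gene differ in sign. Over the 17 members with a second probe set above the filter level, 15 pairs had the same sign and 6 of the second readings were called over all probe sets (Psma5, Psma7, Psmb1, Psmc2, Psmf1 and Psmg2); the median absolute difference between the readings was 0.06 log2 units.

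**Figure D4:**
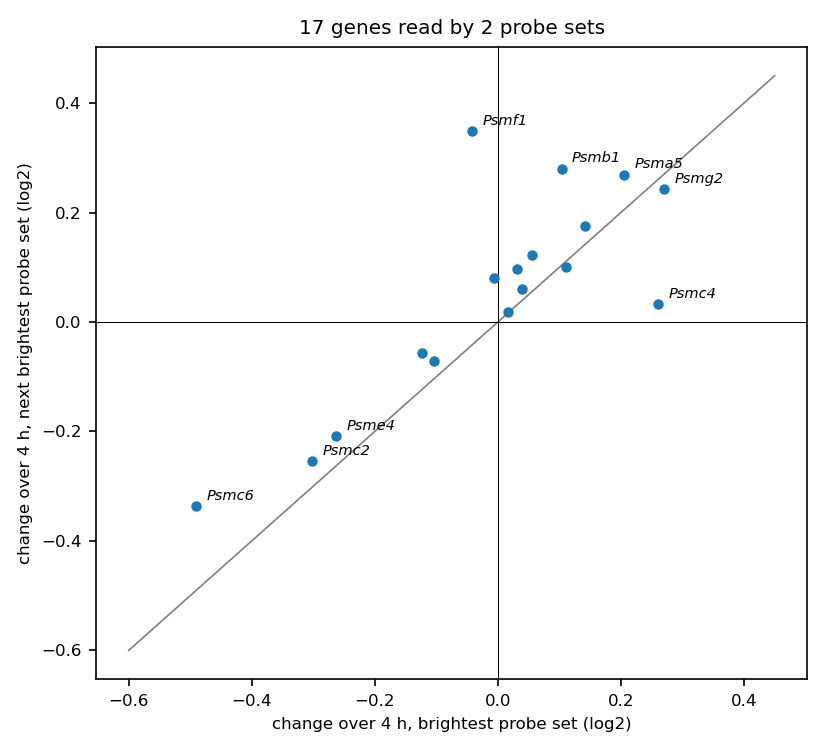
Fitted change over 4 h by the brightest probe set (horizontal axis, log2 units) and by the next brightest (vertical axis, log2 units) for the 17 members with 2 readings; the line marks equal values. Most points lie near the line, Psmf1 and Psmc4 lie far from it.

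Of the genes that share only the letters, Psmc3ip rose by 0.31 ± 0.078 log2 units (adjusted p = 0.00611), with all arrays from 80 min above all up to 60 min. Psme3ip1 rose by 0.16 ± 0.054 (adjusted p = 0.0301), and lost the call without the untreated, 20, 200 or 220 min array, with adjusted p between 0.0538 and 0.0989.

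The latest arrays, 180 to 240 min, were also set against the earliest after tamoxifen, 20 to 80 min, with 4 arrays in each window. In that fit 6 members were higher and 2 lower, 13.3% and 4.44% of those tested, against 15.1% and 11.1% of all genes. The 6 were Psma4, Psmc3, Psmd10, Psme1, Psmg1 and Psmc3ip, and the 2 were Psmc2 and Psmc6. With each array centred on its own median, 2 members were higher and 2 lower. Leaving out 1 array moved these counts: 1 member was higher without the 20, 40 or 220 min array and 2 without the 200 min array, while 1 was lower without the 20, 40, 200 or 220 min array and 4 without the 80 min array. Psmg1 had a mean of 10.10 ± 0.053 at 180 to 240 min and 9.92 ± 0.104 at 20 to 80 min on the log2 scale (SD, n = 4 arrays each), a difference of 0.18 ± 0.058 (SE, adjusted p = 0.033). A curve of 3 degrees of freedom called 7 members, 15.6%, against 24.9% of all genes. Those were the 6 named as higher at 180 to 240 min together with Psmc2. The count was 3 without the untreated or 220 min array and 4 without the 20 or 160 min array. Shares of all genes were not counted with each array centred on its median or with 1 array left out. The member counts of those fits thus have no background beside them.

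From untreated to 240 min the single arrays showed small differences, and with 1 array each there is no test. Past 1.2-fold, 1 member was higher and 0 were lower at 240 min, while 11.6% and 12.4% of all genes tested were. The 1 member was Psmg1, with 1067 intensity units at 240 min and 885 in untreated cells, a difference of 0.27 log2 units. The median difference was 0.09 for the alpha subunits, -0.0023 for the beta subunits, -0.0037 for the ATPases and -0.014 for the non-ATPases. It was 0.16 for the 3 chaperones of the regulatory particle, 0.19 for the 4 chaperones of the core, -0.027 for the 3 activators and 0.0023 for all genes tested. The immunoproteasome was read by Psmb10 alone, with 0.07. The lowest member was Psmc6, at -0.23, with 3785 intensity units at 240 min and 4428 in untreated cells.

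**Figure D5:**
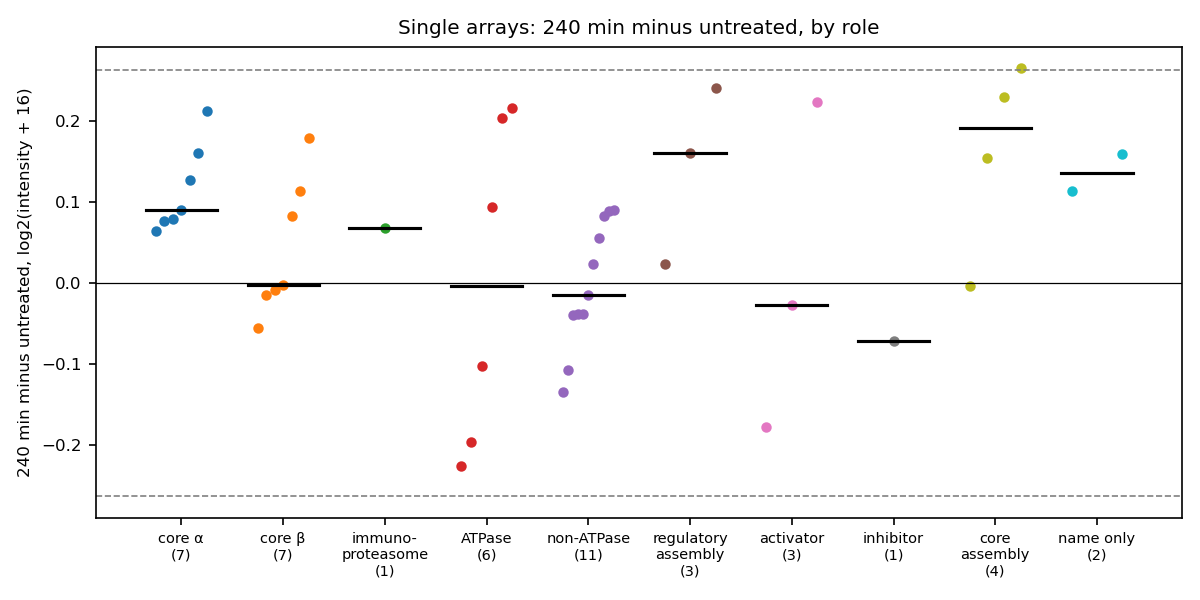
Difference between the 240 min array and the untreated array (vertical axis, log2 units) for the 45 members tested, by role, with the number of genes below each role; points are genes, bars are group medians and dashed lines mark 1.2-fold. 1 core assembly gene, Psmg1, lies past the upper line.

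Genes that act on the proteasome were listed separately: 25 genes for its import, cofactors, ubiquitin shuttles and transcription factors, of which 21 were tested. Here 1 rose and 5 fell, 4.76% and 23.8% of the list, where 22.3% and 17.6% of all genes tested did. Akirin2 and Ipo9, which together carry proteasomes into the nucleus, were called in opposite directions: Ipo9 rose by 0.33 ± 0.060 log2 units (adjusted p = 0.000833) and Akirin2 fell by 0.44 ± 0.091 (adjusted p = 0.00159). Zfand2a and Zfand5, zinc finger proteins that bind the proteasome, fell by 1.05 ± 0.179 and 0.81 ± 0.088 (adjusted p = 0.000498 and 9.1e-05). Zfand5 had 3669 intensity units at 240 min and 6086 in untreated cells. Nfe2l1, the transcription factor that raises proteasome genes when the proteasome is inhibited, fell by 0.34 ± 0.082 (adjusted p = 0.00469), and the shuttle Rad23b fell by 0.19 ± 0.068 (adjusted p = 0.0396). Nfe2l2, the antioxidant regulator, had 0.03 (adjusted p = 0.848). Among 5 tested genes of 10 listed for ubiquitin itself and its conjugation, 0 rose and 2 fell, where 22.3% and 17.6% of all genes tested did. Both, Ube2k and Ube2d3, are conjugating enzymes, and they fell by 0.19 and 0.17 log2 units.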

How the data were processed

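The deposited values were intensities on a linear scale for 22690 probe sets on each of 13 arrays. Per the labels, Trizol RNA was turned into biotinylated cRNA by the array maker's protocol. Which software summarised and scaled the probes is not stated. The arrays had similar medians as deposited, so changes are relative to the bulk of genes. The platform table gave 1 symbol to 20393 probe sets, several to 691 and none to 1606. Where a gene had several probe sets, the one brightest on average was used, as log2(intensity + 16), on which scale a fold understates the change of dim genes, with no further normalization. Genes under the 40th percentile of mean level were left out. The fits (limma 3.58.1 in R 4.3.3, Benjamini-Hochberg over all genes tested) were a straight line in time, 180 to 240 min minus 20 to 80 min, a cubic spline with 3 degrees of freedom, and a step between 60 and 80 min. All of these but the step were tested on simulated data with straight-line changes. The number of arrays limits the precision, and the median residual SD of the line was 0.0873 log2 units. Named are all members called, the catalytic pairs, activators, inhibitor and core chaperones, the 3 steepest members of each role, and the called genes of the added lists; Psma2, Psma3, Psma6, Psmb4, Psmd1, Psmd2, Psmd14, Pomp and Nfe2l2 were added with their values seen. Members and lists were chosen with earlier results of these data known. Psme2 shares its probe set with Psme2b and was fitted among all probe sets. The closing section gives the alternatives: pseudocount, centring, quantile scaling, filter, probe set choice, array weights and arrays left out.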

Additional observations from a re-analysis of the deposited data

How the results depend on the processing

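Of 1215 slopes of members refitted under the alternatives, 320 stayed called and 783 stayed not called, 85 lost the call and 27 gained one. The sign turned in 68 of those that stayed not called, and in 0 that were called under either setting. For most of the settings below only members were counted. A count that moved then has no share of all genes beside it and cannot be read as particular to the members. The 13 rising members numbered 8 without the 200 and 220 min arrays, and 0 with the step as a block or from 80 to 240 min alone; leaving out 1 array each gave 7 to 15, with 7 without the untreated and 8 without the 220 min array. The 2 falling members numbered 1 with the mean over probe sets, 4 with array weights, 4 with the step in place of the line, and 0 with the step as a block or from 80 to 240 min alone. The 6 members higher at 180 to 240 min than at 20 to 80 min numbered 2 with median centring, 2 over every probe set and 0 without the 200 and 220 min arrays (limma, with 2 at an unadjusted p under 0.05); leaving out 1 array gave 1 to 8, with 1 without 20, 40 or 220 min and 2 without 200 min. The 2 lower ones numbered 1 with the mean over probe sets, 1 with array weights and 1 without the 200 and 220 min arrays. Leaving out 1 array gave 1 to 4 lower members, with 4 without 80 min and 1 without 20, 40, 200 or 220 min. Without the 200 and 220 min arrays this comparison called 8.53% of all genes tested, higher and lower together. With all arrays it called 15.1% higher and 11.1% lower. The count under an unadjusted p of 0.05 was made for members only. The 7 members past the spline test numbered 4 over every probe set, 14 with array weights, 3 without the 200 and 220 min arrays, and 3 to 9 leaving out 1 array, with 3 without the untreated or 220 min array and 4 without 20 or 160 min. The 1 member past 1.2-fold at 240 min numbered 0 with a pseudocount of 64, with quantile scaling or at 1.3-fold, 2 with median centring, 15 at 1.1-fold, and 4 with the mean of 200, 220 and 240 min in place of 240 min. The comparison of probe sets of Psmc6 and Psme4 without 2 arrays was chosen after seeing the data. No paired analysis was possible because each time has 1 array. Low signal limits what Psmb8 and Psmb9, both below the filter, can show, and 1 array per time leaves a dip at 200 and 220 min without a repeat.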
